A study of Mus musculus with 4 samples.

Results

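Carboxylesterases are serine hydrolases that cut esters, amides and thioesters in drugs, pesticides and lipids. The 10 genes described here are Ces1c, Ces1d, Ces1e, Ces1f, Ces1g, Ces2a, Ces2c, Ces2e, Ces3a and Ces3b, chosen by symbol among the rows of the deposited table to which the platform annotation gives exactly 1 gene. Of the 10, 9 had such a row, out of 22180 genes tested, and Ces2c was not analysed here. Each of the 9 had a single row. The choice was made with the difference between the diets known, so every difference of these 9 genes is a description and supports nothing.

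Transcripts were measured in the livers of male mice of the inbred strain C57BL/6J, wild-type in genotype. The mice were fed the MCD diet, which lacks methionine and choline, or a normal diet for 20 weeks, starting when they were 6 weeks old. Total RNA from 2 samples per diet was hybridised to 4 Mouse Gene 2.1 ST arrays, each giving 1 log2 signal per row. The MCD diet deprives the liver of the precursors for phosphatidylcholine and is widely used to produce fatty liver with inflammation. The labels name numbered mice and leave unsaid how many animals gave the RNA on 1 array, so the errors measure only the spread between these samples, which may be technical. The number of arrays limits the precision. Array medians were 2.57 and 2.63 on the MCD diet and 2.63 and 2.65 on the normal diet, and the brightest row of each array reached 12.1. Signals of different rows are not on a common scale, so levels are compared between diets within a gene and not between genes.

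Most carboxylesterases of the liver lie in the lumen of the endoplasmic reticulum, held there by a signal at the end of the protein that KDEL receptors recognise. In mice the family has grown by repeated gene duplication, which has left tandem arrays of related genes. The Ces1 group is known for hydrolysis of stored triacylglycerol and of many drugs, and the Ces2 group for drug and acylglycerol hydrolysis in liver and intestine. Close copies can share probe sequence, so the signal of any one gene of the family may hold some signal of its relatives, and its size is uncertain for that reason.

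Most of the chosen carboxylesterases fell on the MCD diet, by amounts that differed from gene to gene. Ces3b was 117-fold and Ces2a 26.5-fold lower, 6 others were 1.995-fold to 5.05-fold lower, and Ces1c did not pass the test. In a linear model over all genes (limma, Benjamini-Hochberg adjusted p under 0.05), 8 of the 9 genes were lower, which was so for 3.62% of all genes tested and for 9.59% of the brightest 25% of genes. No member was higher, at the adjusted threshold or at an unadjusted p under 0.05. All 9 had both MCD diet arrays below both normal diet arrays, as did 29.2% of all genes. The median log2 difference of the 9 was -1.28, beside -0.03 over all genes. Since these genes were chosen on this contrast, nothing is read from the counts. With 3 arrays left, 8 genes were called lower without MCD diet replicate 2, 5 without MCD diet replicate 1 and 3 without either normal diet array.

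**Figure D1:**
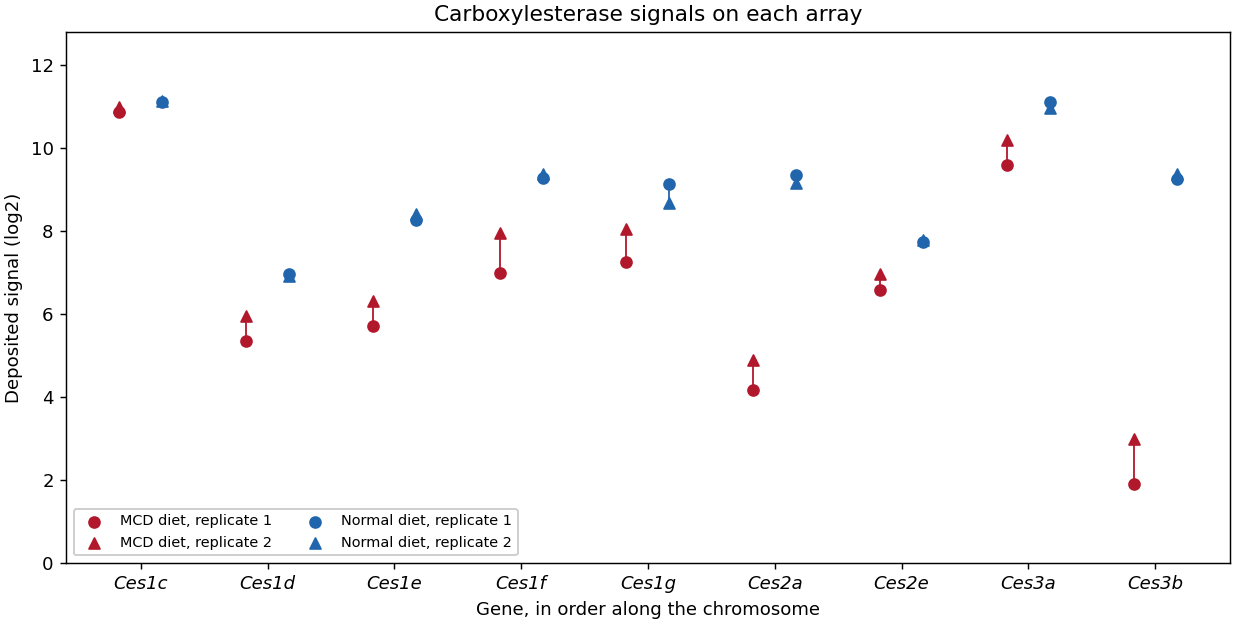
Deposited log2 signal of the 9 measured carboxylesterases on each of the 4 arrays, MCD diet in red and normal diet in blue, with a line joining the arrays of 1 diet. Every MCD diet point lies below both normal diet points of its gene, and the gap is widest for Ces3b and Ces2a.

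Ces3b and Ces3a, the Ces3 genes of the mouse, encode esterases of the Es31 type that lie side by side on chromosome 8. Ces3b had signals of 1.90 and 2.99 on the MCD diet arrays, against 9.25 and 9.38 on the normal diet arrays. It fell by 6.87 ± 0.34 on the log2 scale (117-fold lower; ± is the standard error of the difference throughout, n = 2 arrays per diet), the fourth lowest difference of all genes. A bright signal in normal diet livers thus became a dim one in MCD diet livers, where 1 array lay below the array's median, and the size of so large a fold is uncertain because no background value was analysed here. Ces3a had 9.60 and 10.2 in MCD diet livers, against 11.1 and 11.0 in normal diet livers. It fell by 1.15 ± 0.21 (2.22-fold lower), and its groups did not overlap. The neighbouring copies therefore differed widely in the size of their measured fall. The normal diet signals of Ces3a lay near the top of the scale, where arrays can compress differences, and this was not tested. The call of Ces3a was lost without MCD diet replicate 1 and without either normal diet array. The 250 bases before the annotated start of Ces3b (RefSeq, GRCm38.p6, chr8:105083505-105083754, plus strand) are shown because this gene had the widest difference of the family, with the letters TATAAA of a TATA box in capitals:
Ces3b: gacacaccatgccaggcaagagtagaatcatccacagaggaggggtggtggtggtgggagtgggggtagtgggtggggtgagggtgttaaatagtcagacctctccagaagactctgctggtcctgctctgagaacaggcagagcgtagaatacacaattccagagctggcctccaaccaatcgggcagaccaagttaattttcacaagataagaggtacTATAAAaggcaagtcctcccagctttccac
The word TATAAA, searched on both strands, lies 30 to 25 bases before the start. Of the 32851 RefSeq promoter entries, some of which belong to 1 gene, 12.4% hold it anywhere in the 250 bases, on either strand. The share that hold it at this place was not counted.

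Among the Ces2 genes, Ces2a and Ces2e were both lower, by very different amounts. Ces2a, a hydrolase of drugs and acylglycerols, had 4.17 and 4.88 on the MCD diet arrays, against 9.35 and 9.16 on the normal diet arrays. It fell by 4.73 ± 0.24 (26.5-fold lower), the seventh lowest difference of all genes. Neither MCD diet array came near the normal diet range. Ces2e, a hydrolase of the same group, had 6.57 and 6.96 in MCD diet livers, against 7.75 and 7.78 in normal diet livers. It fell by 0.997 ± 0.16 (1.995-fold lower), with no overlap between diets, and the call was lost without MCD diet replicate 1, without either normal diet array and where a fall of at least 2-fold was asked. Ces2g, which is outside the 10 genes but of the same group, went the other way, with 8.12 and 7.85 on the MCD diet, against 7.40 and 7.09 on the normal diet. It rose by 0.74 ± 0.16 (1.67-fold; limma adjusted p = 0.0443), and this call was lost when any 1 array was left out, with all rows of the table tested and where a 2-fold change was asked (adjusted p up to 0.182). Ces2b, Ces2f, Ces2h and the pseudogene Ces2d-ps differed by -0.24, -0.19, 0.07 and -0.44 and did not pass, with signals of at most 3.56 on any array. The 250 bases upstream of Ces2a (chr8:104733753-104734002), Ces2e (chr8:104926010-104926259) and Ces2g (chr8:104961468-104961717), all on the plus strand of GRCm38.p6 and from RefSeq, are shown because these related genes moved apart, with a word they share, ACTTTGCCC, in capitals:
Ces2a: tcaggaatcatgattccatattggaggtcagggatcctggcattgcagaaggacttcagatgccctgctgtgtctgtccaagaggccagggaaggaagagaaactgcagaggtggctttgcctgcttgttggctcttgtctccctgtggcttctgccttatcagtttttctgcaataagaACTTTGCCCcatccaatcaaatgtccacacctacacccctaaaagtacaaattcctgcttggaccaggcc
Ces2e: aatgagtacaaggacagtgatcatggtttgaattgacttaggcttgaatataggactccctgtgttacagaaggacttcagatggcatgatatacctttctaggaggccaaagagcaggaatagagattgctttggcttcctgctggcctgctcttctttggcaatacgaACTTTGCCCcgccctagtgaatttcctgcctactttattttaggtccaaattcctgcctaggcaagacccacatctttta
Ces2g: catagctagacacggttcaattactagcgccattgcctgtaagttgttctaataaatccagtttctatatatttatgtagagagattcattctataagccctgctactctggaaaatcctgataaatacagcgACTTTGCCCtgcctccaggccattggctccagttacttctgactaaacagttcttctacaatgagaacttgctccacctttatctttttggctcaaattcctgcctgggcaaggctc
The word was picked after the sequences were seen, as a long word held by most Ces2 promoters, and searched on both strands. It is in 4 of 6 Ces2 promoters, those of Ces2a, Ces2e, Ces2f and Ces2g, in 0 of 6 Ces1 promoters and in 0.222% of all promoters. It thus stands upstream of a gene that fell 26.5-fold, of one that rose and of one that did not pass the test. The aligned upstream sequences of Ces2a and Ces2e were 53.2% identical, and those of Ces2a and Ces2g 50.7%. Pairs from different subfamilies had a median of 45.5% and reached 50.4%, and pairs from the same subfamily had a median of 49.35%.

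Of the 5 chosen Ces1 genes, 4 were lower. Ces1e encodes egasyn, which binds beta-glucuronidase and holds it in the reticulum. It had 5.71 and 6.31 on the MCD diet arrays, against 8.27 and 8.42 on the normal diet arrays, and fell by 2.34 ± 0.21 (5.05-fold lower). Ces1f, also named TGH-2, had 6.99 and 7.95 in MCD diet livers, against 9.28 and 9.38 in normal diet livers, a fall of 1.86 ± 0.30 (3.63-fold lower). Both genes had MCD diet arrays far apart from each other yet wholly below the normal diet arrays. Ces1d is the triacylglycerol hydrolase TGH, known in mice to mobilise stored fat for very low density lipoprotein (VLDL). Its signals were 5.36 and 5.96 on the MCD diet and 6.95 and 6.93 on the normal diet. Ces1d fell by 1.28 ± 0.21 (2.43-fold lower), without overlap. Ces1g, whose loss in mice is known to raise blood and liver fat, had 7.26 and 8.06 on the MCD diet, against 9.14 and 8.69 on the normal diet. Its fall of 1.26 ± 0.29 (2.39-fold lower) was the least certain of these, since the call was lost under 6 of 13 alternatives, among them quantile normalization, the test of all rows and the fits without MCD diet replicate 1 or without either normal diet array. The calls of Ces1d and Ces1f were lost without either normal diet array, and that of Ces1e held under all 13 alternatives, as did those of Ces2a and Ces3b.

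Ces1c was the 1 measured member that did not pass the test. It encodes the carboxylesterase of mouse plasma, which lacks the retention signal and is secreted. Its signals were 10.9 and 11.0 on the MCD diet arrays and 11.1 and 11.1 on the normal diet arrays. The difference was -0.20 ± 0.12 and did not pass the threshold, although the arrays did not overlap. Its signals lay near the top of the scale, where arrays can compress differences, and this was not tested. Ces1b, the neighbour of Ces1c and outside the 10 genes, also did not pass, with 6.17 and 6.82 on the MCD diet, against 6.89 and 7.13 on the normal diet, a difference of -0.52 ± 0.23 (limma adjusted p = 0.240). Ces1a and Ces1h differed by -0.06 and -0.15 at dim signals. The upstream sequences of Ces1e (chr8:93229620-93229869), Ces1g (chr8:93337210-93337459), Ces1c (chr8:93131284-93131533) and Ces1b (chr8:93079941-93080190), from RefSeq on the minus strand of GRCm38.p6, set called genes beside uncalled ones. Capitals mark the word TTATGTAA, the core of the D-box bound by PAR bZIP proteins and NFIL3, and, in Ces1g, a TATAAA word on the opposite strand:
Ces1e: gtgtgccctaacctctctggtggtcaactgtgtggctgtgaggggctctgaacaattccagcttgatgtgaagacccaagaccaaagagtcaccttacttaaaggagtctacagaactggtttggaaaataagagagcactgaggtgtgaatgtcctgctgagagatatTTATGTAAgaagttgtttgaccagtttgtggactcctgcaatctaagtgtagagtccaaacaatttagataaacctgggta
Ces1g: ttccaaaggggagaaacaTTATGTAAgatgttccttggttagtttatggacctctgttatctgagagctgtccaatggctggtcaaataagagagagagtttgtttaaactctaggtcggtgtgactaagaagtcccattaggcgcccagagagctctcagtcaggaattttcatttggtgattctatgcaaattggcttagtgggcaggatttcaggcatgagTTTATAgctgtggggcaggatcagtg
Ces1c: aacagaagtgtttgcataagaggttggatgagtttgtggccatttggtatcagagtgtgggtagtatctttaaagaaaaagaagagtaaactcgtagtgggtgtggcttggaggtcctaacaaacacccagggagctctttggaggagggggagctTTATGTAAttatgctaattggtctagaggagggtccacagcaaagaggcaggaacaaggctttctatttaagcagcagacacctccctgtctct
Ces1b: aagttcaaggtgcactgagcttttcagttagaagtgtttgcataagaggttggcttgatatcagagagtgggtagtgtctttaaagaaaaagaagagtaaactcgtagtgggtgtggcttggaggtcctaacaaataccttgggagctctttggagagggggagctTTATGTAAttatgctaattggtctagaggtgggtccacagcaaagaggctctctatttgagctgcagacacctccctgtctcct
This word too was picked after the sequences were seen. Searched on both strands, it is in 5 of 6 Ces1 promoters (Ces1a, Ces1b, Ces1c, Ces1e and Ces1g), in 0 of 6 Ces2 promoters and in 0.819% of all promoters. It lies 81, 94 and 84 bases before the start in Ces1e, Ces1c and Ces1b, and 232 bases before it in Ces1g. Genes that fell (Ces1e and Ces1g) and genes that did not pass both carry it. No promoter was found for Ces1d and Ces1f, which also fell, so these were not searched. The upstream sequences of Ces1b and Ces1c were 76.2% identical, the closest pair among the 15 family genes with a promoter. Those of Ces1c and Ces1e were 44.4% identical, where pairs from different subfamilies had a median of 45.5%. Such matches describe the letters and are not evidence of binding.

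**Figure D2:**
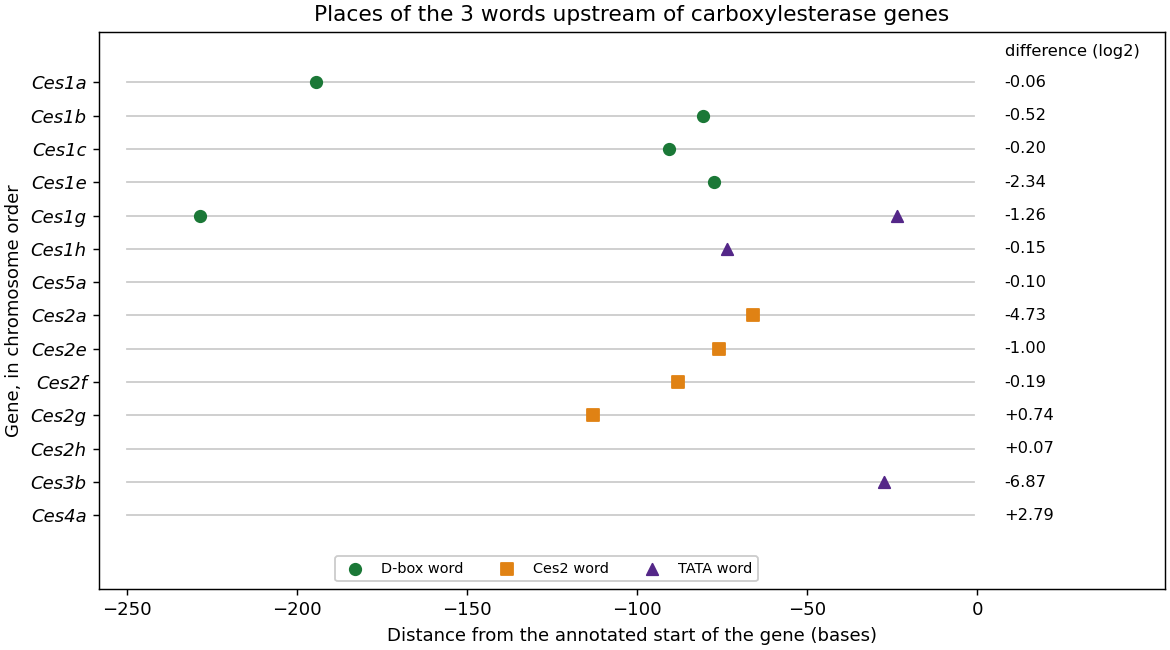
Places of the D-box word (TTATGTAA), the Ces2 word (ACTTTGCCC) and the TATA word (TATAAA) within 250 bases before the annotated start of each carboxylesterase gene that has a RefSeq promoter and a row, in chromosome order. The number at the right is the log2 difference, MCD diet minus normal diet, and it ranges from -4.73 to 0.74 among the genes that hold the Ces2 word.

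Outside the 10 chosen genes, the family held 10 more, of which 2 rose and 8 did not pass the test. By comparison 6.37% of all genes were called higher. Ces4a had 6.44 and 5.03 on the MCD diet arrays, against 2.69 and 3.20 on the normal diet arrays, a rise of 2.79 ± 0.45 (6.91-fold; limma adjusted p = 0.0156). Both MCD diet arrays lay well above the normal diet arrays but 1.41 apart from each other, and the call was lost without normal diet replicate 1 (adjusted p up to 0.0625 over the alternatives, with differences of 2.09 to 3.49). Ces2g was the other gene that rose. Ces5a, the mouse relative of the cat urinary protein cauxin, differed by -0.10 at signals under 2. Over the whole family 8 genes were lower, 2 higher and 9 not called.

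Genes that fell and genes that rose lay in the same cluster on chromosome 8. In the gene order of RefSeq the family forms 2 clusters, one with 9 measured genes between Ces1a and Ces5a and one with 10 between Ces2a and Ces4a. The genes that fell in the first cluster, Ces1d to Ces1g, are consecutive, and those on either side of them did not pass. In the second cluster Ces2a, Ces2e, Ces3a and Ces3b fell, while Ces2g between them and Ces4a next to Ces3b rose. Of the 12 nearest measured protein-coding genes outside the family, 3 on each side of each cluster, 1 passed the test. Over all genes 3.62% were called lower and 6.37% higher. The 1 neighbour that passed was Lpcat2, a lysophosphatidylcholine acyltransferase, which rose by 1.02 ± 0.13 (limma adjusted p = 0.00737). The other 11 differed by -0.35 to 0.29. Several of the 11 were dim on all arrays, such as Slc6a2 (1.93 to 2.31) and Rrad (1.95 to 2.35), which leaves little room for a fall.

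**Figure D3:**
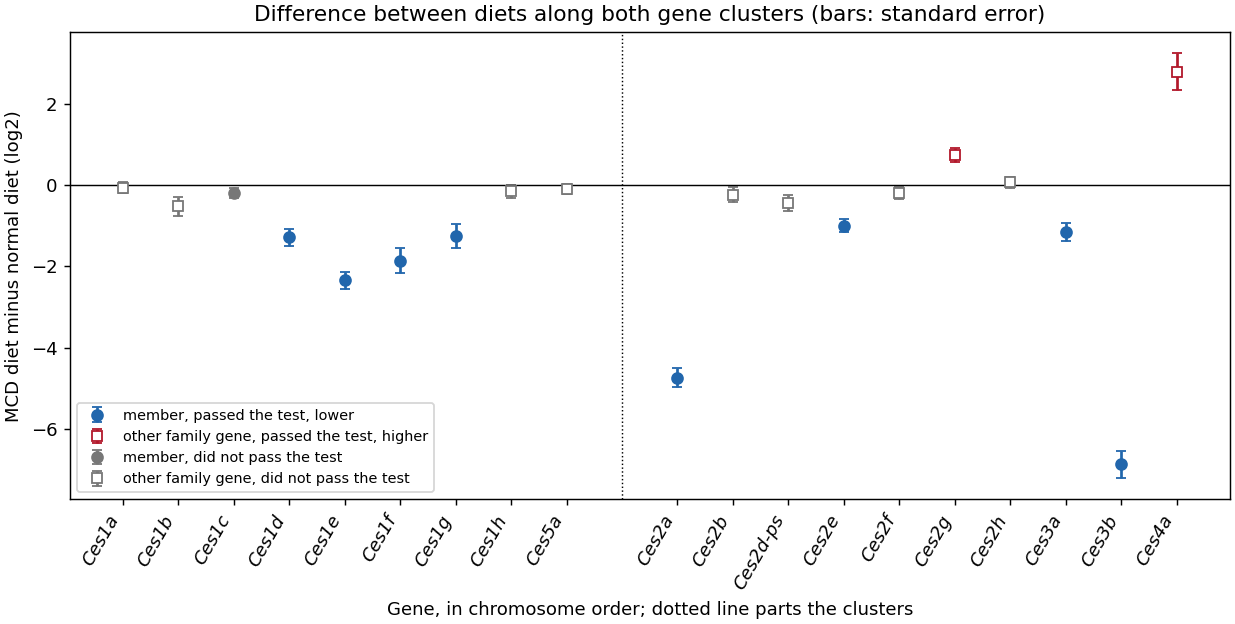
Log2 difference, MCD diet minus normal diet, with its standard error for the 19 measured family genes in chromosome order. Filled circles are the chosen genes and open squares the others. Ces2g and Ces4a, the 2 genes above 0 that passed the test, lie in the same cluster as Ces2a and Ces3b.

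The MCD diet arrays differed from each other in a set direction across these genes. Replicate 1 was below replicate 2 for all 9 chosen genes and for 17 of the 19 family genes. The exceptions were Ces2g and Ces4a, the genes that rose, where replicate 1 was above replicate 2. Replicate 1 was therefore farther from the normal diet livers for each of the 10 family genes that passed the test. Over all genes replicate 1 was the lower for 52.3%, and among the 346 genes called lower by at least 2-fold it was the lower for 63.6%. Among the 1412 genes called higher it was the lower for 35.4%, so most genes that rose went the way of Ces2g and Ces4a. The gap between the MCD diet arrays was 1.09 for Ces3b, 0.97 for Ces1f, 0.80 for Ces1g and 0.13 for Ces1c, whereas the normal diet arrays were at most 0.45 apart for any of the 9 genes. Replicate 1 was also the higher for 11 of 12 macrophage markers, whereas it was the lower for 7 of 10 stellate cell and fibroblast markers and for 3 of 5 biliary markers. It was the lower for 5 of 13 hepatocyte markers, 4 of 8 endothelial markers and 5 of 8 lymphocyte and neutrophil markers. What sets the MCD diet arrays apart was not tested.

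**Figure D4:**
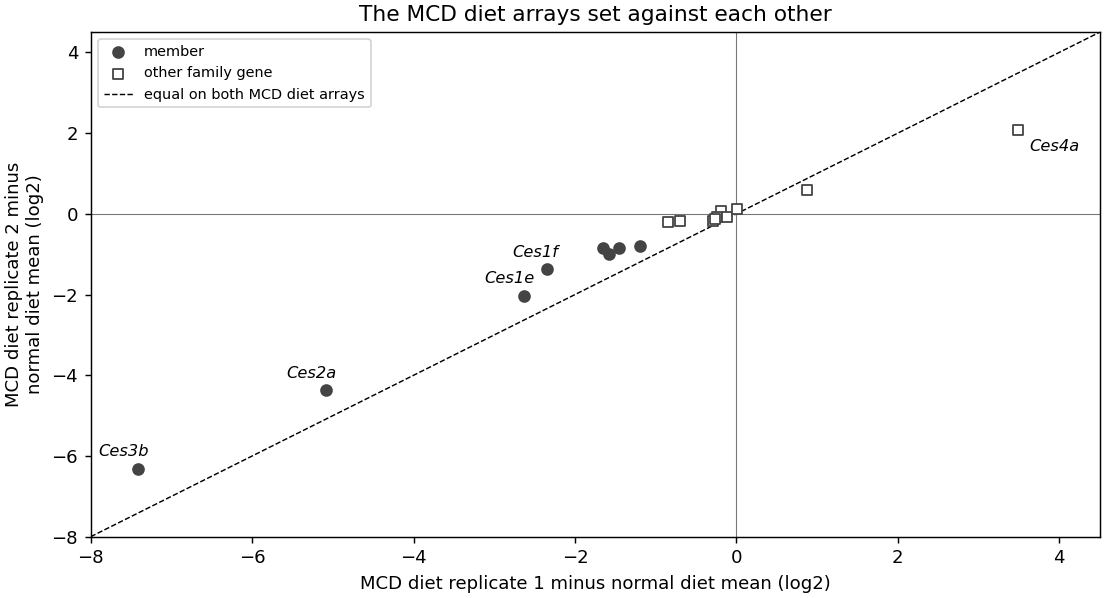
For each measured family gene, the log2 signal of MCD diet replicate 1 minus the normal diet mean (horizontal) and the same for MCD diet replicate 2 (vertical). Points of the chosen genes lie above the dashed line of equality, left of 0, and Ces4a lies below the line on the right.

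Other hydrolases of liver went partly the same way. Of 14 measured ester and epoxide hydrolases 5 were lower, 1 was higher and 8 did not pass, with a median difference of -0.43. The kynurenine formamidase gene Afmid fell by 2.74 ± 0.20, the valacyclovir hydrolase gene Bphl fell by 1.46 ± 0.12 and Aadac, the arylacetamide deacetylase of the hepatocyte reticulum, by 1.28 ± 0.12 (limma adjusted p = 0.00303). Aadac had 8.24 and 8.36 on the MCD diet arrays, against 9.62 and 9.54 on the normal diet arrays. Among 11 neutral lipid hydrolases 2 were higher and 9 did not pass (median 0.03). Lipoprotein lipase, Lpl, rose by 4.01 ± 0.29 (2.35 where the rows of a gene were averaged) and the cholesteryl ester hydrolase gene Nceh1 by 0.95 ± 0.19, and the call of Nceh1 was lost under 7 of 13 alternatives. At an unadjusted p under 0.05 in limma, 4 of these lipid hydrolases were higher and 1 was lower. VLDL assembly genes gave 1 lower of 11 (Sar1b, which fell by 0.66 ± 0.15, a call lost under 7 of 13 alternatives). Beside these counts, 3.62% of all genes were called lower and 6.37% higher, and 9.59% and 8.44% of the brightest 25% of genes. Nothing is read from 1 call in a list of this size.

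Of 9 genes that hold carboxylesterases in the reticulum or work beside them there, 1 was higher and 8 did not pass the test (median 0.06). The share called higher was 6.37% over all genes and 8.44% over the brightest 25% of genes. The KDEL receptor genes Kdelr1, Kdelr2 and Kdelr3 differed by 0.04 ± 0.15, 0.22 ± 0.15 and 0.06 ± 0.14, and the sign of Kdelr1 turned under quantile normalization. Gusb, which encodes the beta-glucuronidase that egasyn binds, had 7.25 and 6.91 on the MCD diet, against 6.04 and 6.16 on the normal diet. It rose by 0.98 ± 0.16 (limma adjusted p = 0.0155), while Ces1e fell, and its call was lost under 4 of 13 alternatives.

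Transcription factors known to act on carboxylesterase genes gave 3 lower, 1 higher and 7 not called of 11, with a median of -0.37. For this and the next 3 lists, the shares over all genes were 3.62% lower and 6.37% higher. Over the brightest 25% of genes they were 9.59% and 8.44%. The xenobiotic receptor gene Nr1i2 (PXR) fell by 0.84 ± 0.17 (limma adjusted p = 0.0354), a call lost under 5 of 13 alternatives, Cebpa by 0.86 ± 0.15 and the corepressor gene Nr0b2 by 2.05 ± 0.34. The 1 that rose, named after its values were seen, was Nfe2l2, which encodes NRF2 (0.67 ± 0.13, a call lost under 5 of 13 alternatives). The calls of Cebpa and Nr0b2 were lost under 4 and 2 of 13 alternatives. Nr1i3 (CAR), Ppara and Hnf4a differed by -0.24 ± 0.27, -0.29 ± 0.21 and -0.44 ± 0.16 and did not pass. Of 11 genes that CAR and PXR induce 3 were lower and 1 higher (median -0.43). Cyp2b10 fell by 3.67 ± 0.32, to MCD diet signals of 1.20 and 1.69, below the array medians, so the size of its fall is uncertain. Cyp2c29 fell by 1.92 ± 0.26 (by 1.08 where the rows of a gene were averaged), while the exporter gene Abcb1a rose by 2.34 ± 0.19. Cyp3a11, named after its values were seen, differed by 0.05 ± 0.17 and did not pass. The cytochrome signals may include close copies. Among 9 genes that PPAR alpha induces 4 were higher and 2 lower (median 0.29), with Acot2 up by 3.57 ± 0.27, Pdk4 by 3.02 ± 0.20 and Cyp4a14 by 1.98 ± 0.14. The 2 lower ones, named after their values were seen, were Fabp1, which fell by 1.75 ± 0.21, and Acaa1b, which fell by 0.64 ± 0.13. NRF2 targets gave 3 higher and 1 lower of 12 (median 0.11), with Hmox1 up by 0.91 ± 0.16 and Nqo1 by 0.90 ± 0.13, calls lost under 3 and 4 of 13 alternatives. The glutathione transferase gene Gsta3 fell by 0.74 ± 0.16, a call lost under 7 of 13 alternatives.

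**Figure D5:**
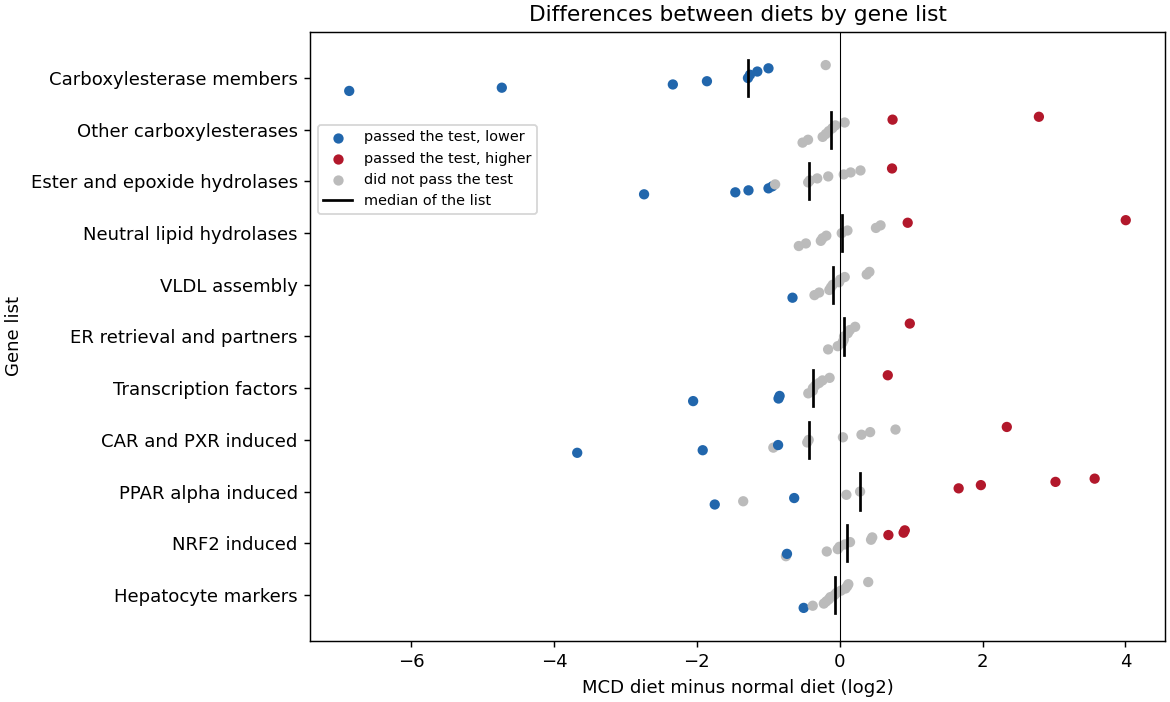
Log2 difference, MCD diet minus normal diet, of every measured gene in the lists, with a black line at each list's median. The chosen carboxylesterases have a median of -1.28, ester and epoxide hydrolases one of -0.43 and hepatocyte markers one of -0.07.

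Markers of hepatocytes, the cells that make most liver carboxylesterase, were bright on all arrays. Their mean signal was 11.1 on both MCD diet arrays and 11.2 on both normal diet arrays, and 12 of 13 did not pass (median -0.07). These signals lay near the top of the scale, where arrays can compress differences, and this was not tested. Apoa1, the main apolipoprotein of HDL, fell by 0.50 ± 0.12, a call lost under 10 of 13 alternatives. Alb differed by -0.04 ± 0.12, a sign that turned under quantile normalization. Beside all counts of markers called, the shares over all genes were 3.62% lower and 6.37% higher. Of 12 macrophage markers 6 were higher and 2 lower, with a mean signal of 5.98 to 6.57 on the MCD diet arrays and 4.69 to 4.73 on the normal diet arrays. Of 5 biliary markers 5 were higher (mean 4.18 to 4.19 on the MCD diet, against 2.79 to 2.88 on the normal diet). Of 10 stellate cell and fibroblast markers 6 were higher and 4 did not pass (5.92 to 6.22 on the MCD diet, against 4.75 to 5.07 on the normal diet). Among 8 endothelial markers 3 were lower (6.10 on both MCD diet arrays, against 6.46 to 6.53 on the normal diet). Among 8 lymphocyte and neutrophil markers 1 was higher (3.23 to 3.27 on the MCD diet, against 2.79 to 2.85 on the normal diet). Markers of intestine, adipose tissue, kidney and pancreas, which could come along with a liver sample, were mostly dim, and kidney markers for instance averaged 2.20 to 2.29 on the MCD diet arrays and 2.44 to 2.45 on the normal diet arrays. Of 21 such markers limma called 0, and at an unadjusted p under 0.05 1 was higher and 3 were lower. The intestine marker Fabp2, named after its values were seen, was not dim. It had 6.23 and 6.70 on the MCD diet arrays, against 6.71 and 7.65 on the normal diet arrays, and did not pass. Under 6 of 13 alternatives 1 intestine marker was called higher, and the widest difference of that list was that of Vil1 (1.16 ± 0.28, limma adjusted p = 0.0570), named after its values were seen. In such bulk samples fewer cells of a type and less RNA per cell cannot be told apart, and the part of these markers in the carboxylesterase differences was not tested.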

How the data were processed

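Biotin-labelled cDNA from liver RNA was read on Mouse Gene 2.1 ST strips, per the labels' protocols. Per the submitters' processing notes, the authors used Transcriptome Analysis Console, and the deposited values were taken as log2 signals. The software's version, its summarization, background step and scaling are not given in the sources used. No source states the log base, which was inferred from the range of values, and every fold change depends on it. Of 34472 rows, 23521 name exactly 1 gene, 1814 several and 9137 none. Symbols were checked against RefSeq (23328 rows matched, 0 updated). A gene with several rows was represented by its brightest row (mean of 4 arrays), leaving 22180 genes. There were 0 unused sample columns.

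Groups came from the sample titles. Values were tested as deposited with limma 3.58.1 in R 4.3.3 (two-sided, 4 arrays, unpaired), adjusted by Benjamini-Hochberg over all genes at a threshold of 0.05. The 2 residual degrees of freedom became 6.06 after moderation. The test was tested on simulated data. The genes named were the 10 carboxylesterases, the rest of the family, regulators and retrieval receptors fixed by name, and cluster neighbours. Up to 3 called genes with the largest differences were named per list. Called markers of cells other than hepatocytes were left unnamed and given as counts and mean signals. Genes named after their values were seen are marked as such. The members and lists were chosen with earlier results of these data known. Promoters are RefSeq sequences of GRCm38.p6, found for 15 of 20 family symbols, cut to 250 bases before the start and aligned globally with Biopython 1.88. Alternatives were other scalings, filters on dim genes, a trend in moderation, mean rows, all rows, a fold rule, a replicate block and leaving out each array.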

Additional observations from a re-analysis of the deposited data

How the results depend on the processing

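Of 117 results of the 9 chosen carboxylesterases under 13 alternatives, 100 kept their direction and side of the threshold, 17 kept the direction but lost the call, and 0 turned direction. With limma, 8 genes were called lower as reported, 7 under quantile normalization, with all rows tested, when calls needed a 2-fold change and an unadjusted p under 0.05, and with the replicate number as a replicate block, and 8 under the other alternatives that keep all arrays. Leaving out an array gave 3 to 8 chosen genes lower, 0 to 1 other carboxylesterases higher (2 as reported), 12 to 17 list genes lower (21) and 20 to 26 higher (33), and 362 to 482 of all genes lower (802) and 688 to 1011 higher (1412). Fewer arrays leave fewer degrees of freedom. With all rows tested 1 other carboxylesterase was higher. The 2-fold rule gave 1 other carboxylesterase higher, 11 list genes lower, and 375 of all genes lower and 780 higher. Ces1g was the member not called with the replicate block. That fit gave 662 lower and 1288 higher. The labels link same-numbered arrays only by their number (correlation of deviations 0.05 across genes). Such a correlation cannot show whether these arrays shared a handling step, so the block is given only as an alternative. Over the 13 alternatives the lists gave 3 to 6 ester and epoxide hydrolases lower, 0 to 3 transcription factors lower, 0 to 3 NRF2 targets higher, 5 to 8 macrophage, 2 to 5 biliary and 3 to 7 stellate cell markers higher, and 1 to 3 endothelial markers lower. Under quantile normalization Ces1a, Alb and Kdelr1 turned to 0.0095, 0.069 and -0.00698. Without 1 array each, differences ranged from -0.19 to 0.073 for Ces1a, from -0.49 to 0.014 for Ces2b, from -0.33 to 0.030 for Ces1h, from -0.012 to 0.15 for Ces2h, from -0.56 to 0.075 for Nr1i3, from -0.60 to 0.019 for Ppara, from -0.11 to 0.19 for Kdelr1 and from -0.049 to 0.16 for Kdelr3, none of which was called. The cause of these changes was not tested. Signal over background was not analysed, which limits the size of folds that start or end at dim signals, such as those of Ces3b and Ces4a.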
